A study of Mus musculus with 14 samples.

Results

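Leukemic progenitors of 4 mice with relapsed leukemia were examined for how far the mice differed from one another in gene expression. In these mice the transplanted leukemia, which the labels call I1DN, returned after a course of 28 days of AG120, and each of the 4 relapse libraries holds the RNA of 1 mouse. They were taken by their label from the 14 libraries of the series, and of the 52636 genes counted, 11620 passed the filter on low counts and were tested. The reference for ordinary variation between mice was the spread within vehicle at day 5 (n = 3) and within vehicle at day 14 (n = 2). Mice on AG120 for 5 days (n = 3) or 14 days (n = 2) entered 1 alternative fit only. All 5 groups carried the same transplanted leukemia, and from every mouse a sort kept the cells with cKit and without CD11b on their surface, whose RNA was read from the 3′ end of transcripts. The labels do not say how long after treatment each relapse was sampled, whether the 4 mice received cells of 1 donor, or whether they were handled together, so these features cannot be told apart from the mouse itself.

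AG120 (AG-120, ivosidenib) blocks mutant IDH1, the form of isocitrate dehydrogenase that makes 2-hydroxyglutarate, a metabolite that inhibits 2-oxoglutarate-dependent enzymes such as the TET DNA demethylases. Leukemic progenitors can resemble stem cells and megakaryocyte or erythroid precursors, marked by transcription factors such as TAL1, GATA2 and MEIS1, or granulocyte and monocyte precursors, marked by CEBPA, GFI1 and the enzymes of primary granules. Cells that make much secretory protein, as granulocyte precursors do, depend on the unfolded protein response, in which the sensors ATF6, IRE1 and PERK raise the chaperones of the endoplasmic reticulum.

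The relapse libraries held 5469485 to 8691708 counts, of which 60.6% to 66.1% fell on ribosomal RNA gene models, and 16062 to 18587 genes were detected in each. The vehicle libraries held 5944412 to 7650267 counts with 50.9% to 68.2% on ribosomal RNA. Mitochondrially encoded genes took 0.719% to 0.766% of the other counts in relapse and 0.626% to 0.801% in vehicle. Levels are given as CPM, counts scaled by the TMM method to a common library total in which ribosomal RNA is included, and spread as the standard deviation (SD) of log2 CPM over the libraries of a group. Kit was detected in every library. Defining markers of T cells, B cells and stroma were at or near 0. Cd3e had no count in any of the 9 libraries, and Cd79a, Cdh5 and Col1a1 stayed at or below 0.614 CPM. Of the macrophage markers, Adgre1 stayed at or below 0.587 CPM and C1qa at or below 4.23. Csf1r was at 9.60 to 20.3 and Cd68 at 10.8 to 24.9. Markers of other blood lineages were present, such as S100a8 (149 to 682 CPM), Itga2b (81.0 to 283) and Cpa3 (19.2 to 69.1). The mast cell marker Fcer1a stayed at or below 0.192 CPM. In bulk RNA, fewer cells of a type and less RNA per cell cannot be told apart.

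Most genes were more variable among relapsed leukemias than among vehicle leukemias. The median SD of a gene was 0.32 in relapse and 0.18 in vehicle, the median ratio of the SDs was 1.83, and the median ratio of the variances was 3.35. The SD was higher in relapse for 9244 of 11620 genes (79.6%). In 3 classes of genes of equal size by expression the median ratio was 1.62 in the lowest, 1.73 in the middle and 2.19 in the highest class, so it was not largest where counts were fewest. An SD above 1, on the log2 scale, was seen for 628 genes in relapse and 26 in vehicle. When edgeR's quasi-likelihood F test asked whether the 4 relapse libraries differed from each other beyond the spread within vehicle, 3308 genes were called at a Benjamini-Hochberg adjusted p under 0.05, which is 28.5% of genes tested. A second test compared the absolute deviations from the group mean with limma: 1438 genes (12.4%) had a higher spread in relapse and 19 (0.164%) a lower one, and 1189 genes were called in both tests. Each relapse mouse has a coefficient of its own in the first test, so a single mouse is assumed to vary like a vehicle mouse, and DESeq2 called 1089 genes in the same design. Without relapse replicate 2 the edgeR count was 2047, and limma called no gene for spread once any 1 relapse library was left out, with 2854 to 3568 genes higher at an unadjusted p under 0.05. Leaving out vehicle day 14 replicate 1 or 2 brought the limma count to 397 or 399. A single library has no spread, so vehicle day 5 alone was then the reference. The deviations of the 2 vehicle day 14 libraries from their mean are mirror images. Their absolute values are therefore equal, although limma takes them as independent. With squared in place of absolute deviations limma called 569 higher and 0 lower (103 lower at an unadjusted p under 0.05). With libraries left out one at a time, the count of genes with a lower spread ran from 0 (each relapse library left out, limma, with 169 to 235 at an unadjusted p under 0.05) to 100 (without vehicle day 5 replicate 2), and with no filter on low counts it was 921.

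**Figure D1:**
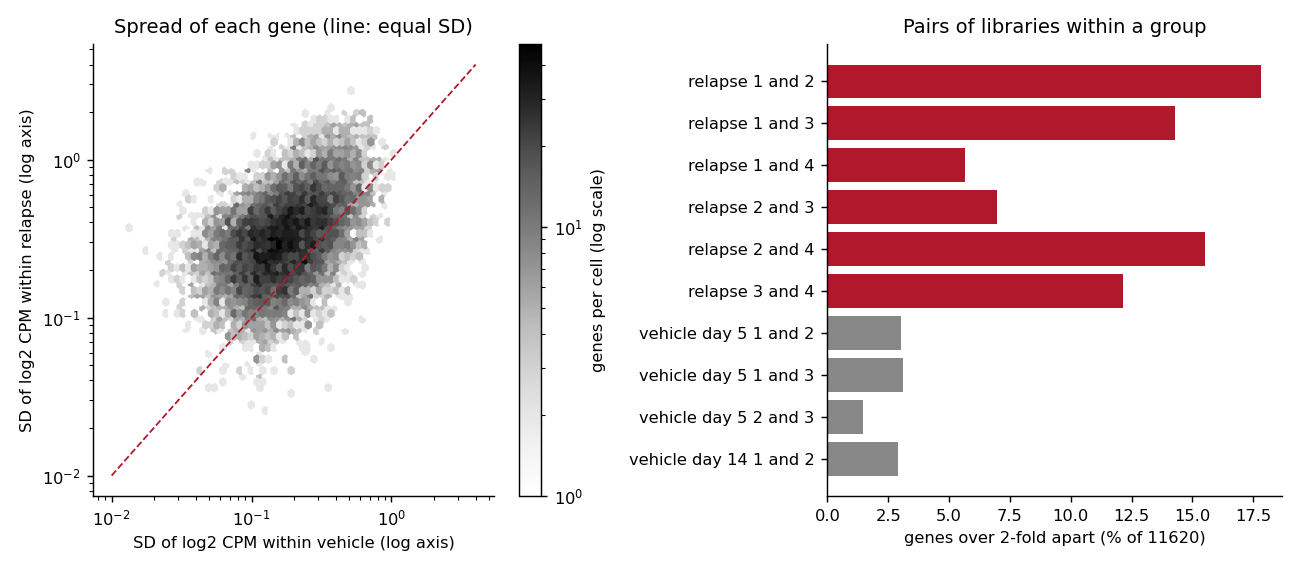
Left: SD of log2 CPM of each tested gene within vehicle (x, log axis) and within relapse (y, log axis), with shading for the number of genes and a dashed line at equal SD. Right: share of the 11620 tested genes more than 2-fold apart between the libraries of each pair within a group; relapse pairs run from 5.64% to 17.8% and vehicle pairs from 1.45% to 3.09%.

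The 4 mice did not differ evenly. Replicates 1 and 4 were the closest pair, with 5.64% of genes more than 2-fold apart, followed by replicates 2 and 3 with 6.98%. The other pairs were further apart: 17.8% for replicates 1 and 2, 15.5% for 2 and 4, 14.3% for 1 and 3, and 12.1% for 3 and 4. Within vehicle day 5 the shares were 3.02% for replicates 1 and 2, 3.09% for 1 and 3 and 1.45% for 2 and 3, and within vehicle day 14 the share was 2.92%. By this share, and by the median absolute difference (0.22 on the log2 scale against 0.16 to 0.20), the closest relapse pair was further apart than any vehicle pair. By a chi-square of the counts, in which abundant genes weigh more, it was not: replicates 1 and 4 gave 4.50 per degree of freedom and the vehicle pairs 3.92 to 21.8. This chi-square used counts without the TMM scaling and with the ribosomal RNA gene models included. The vehicle day 14 pair, at 21.8, had 68.15% and 55.8% of its counts on ribosomal RNA. Relapse replicates 1 and 4 had 66.13% and 64.05%. How far ribosomal RNA set these chi-square values was not tested. The first principal component of the relapse libraries held 63.2% of their variance and placed replicates 2 and 3 at 43.6 and 32.6, and replicates 1 and 4 at -41.9 and -34.3. The second component (20.7%) set replicate 2, at 28.6, against replicate 3, at -33.1. The third (16.1%) set replicate 1, at 26.0, against replicate 4, at -28.6.

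Of the 14 ways in which some of the 4 libraries can lie above a gene's relapse mean, a pair of mirror images was the most frequent. Among the 3308 called genes, replicates 1 and 4 lay above the mean in 1246 (37.7%) and replicates 2 and 3 in 1124 (34.0%), while no other pattern held more than 194. Over all genes tested these patterns made up 23.2% and 23.3%. The programs below are ordered by this axis first and then by the single library that stood apart.

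**Figure D2:**
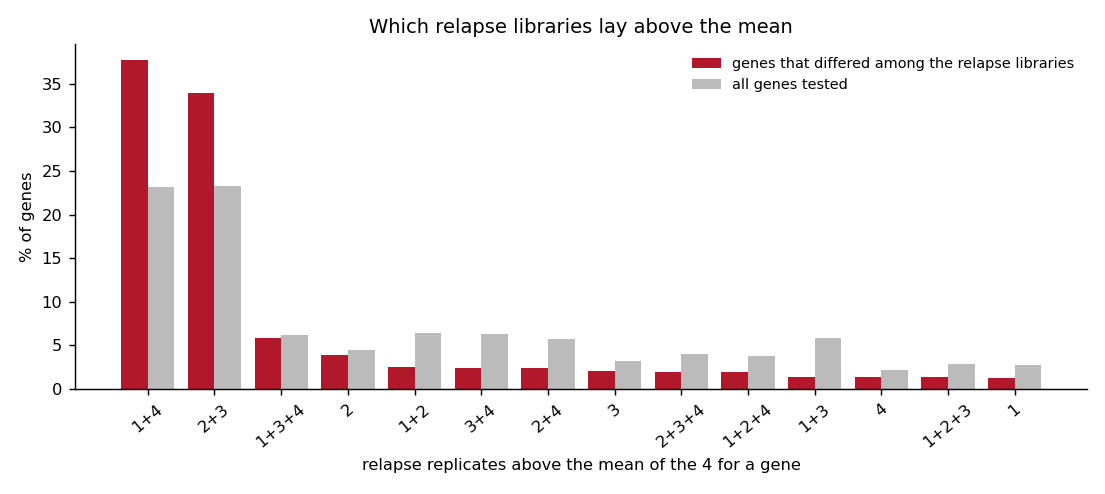
Share of genes (y, %) for each set of relapse replicates that lay above the mean of the 4 (x), among the 3308 genes that differed among the relapse libraries (red) and all 11620 genes tested (grey). The 2 leading patterns hold 37.7% and 34.0% of the red genes.

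Of the 41 lists, 34 had a share of called members above the 28.5% of all genes and 7 did not, and the median SD ratio of every list was above 1, from 1.40 to 12.4. The share of called genes rose with expression: 19.4% in the lowest, 24.2% in the middle and 41.9% in the highest class. Lists were not matched for expression, so a share above 28.5% can also come with abundant members. Lists are described here by counts, and no list was tested as a set. Genes that failed the filter on low counts are in none of these counts, and some genes belong to more than 1 list.

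**Figure D3:**
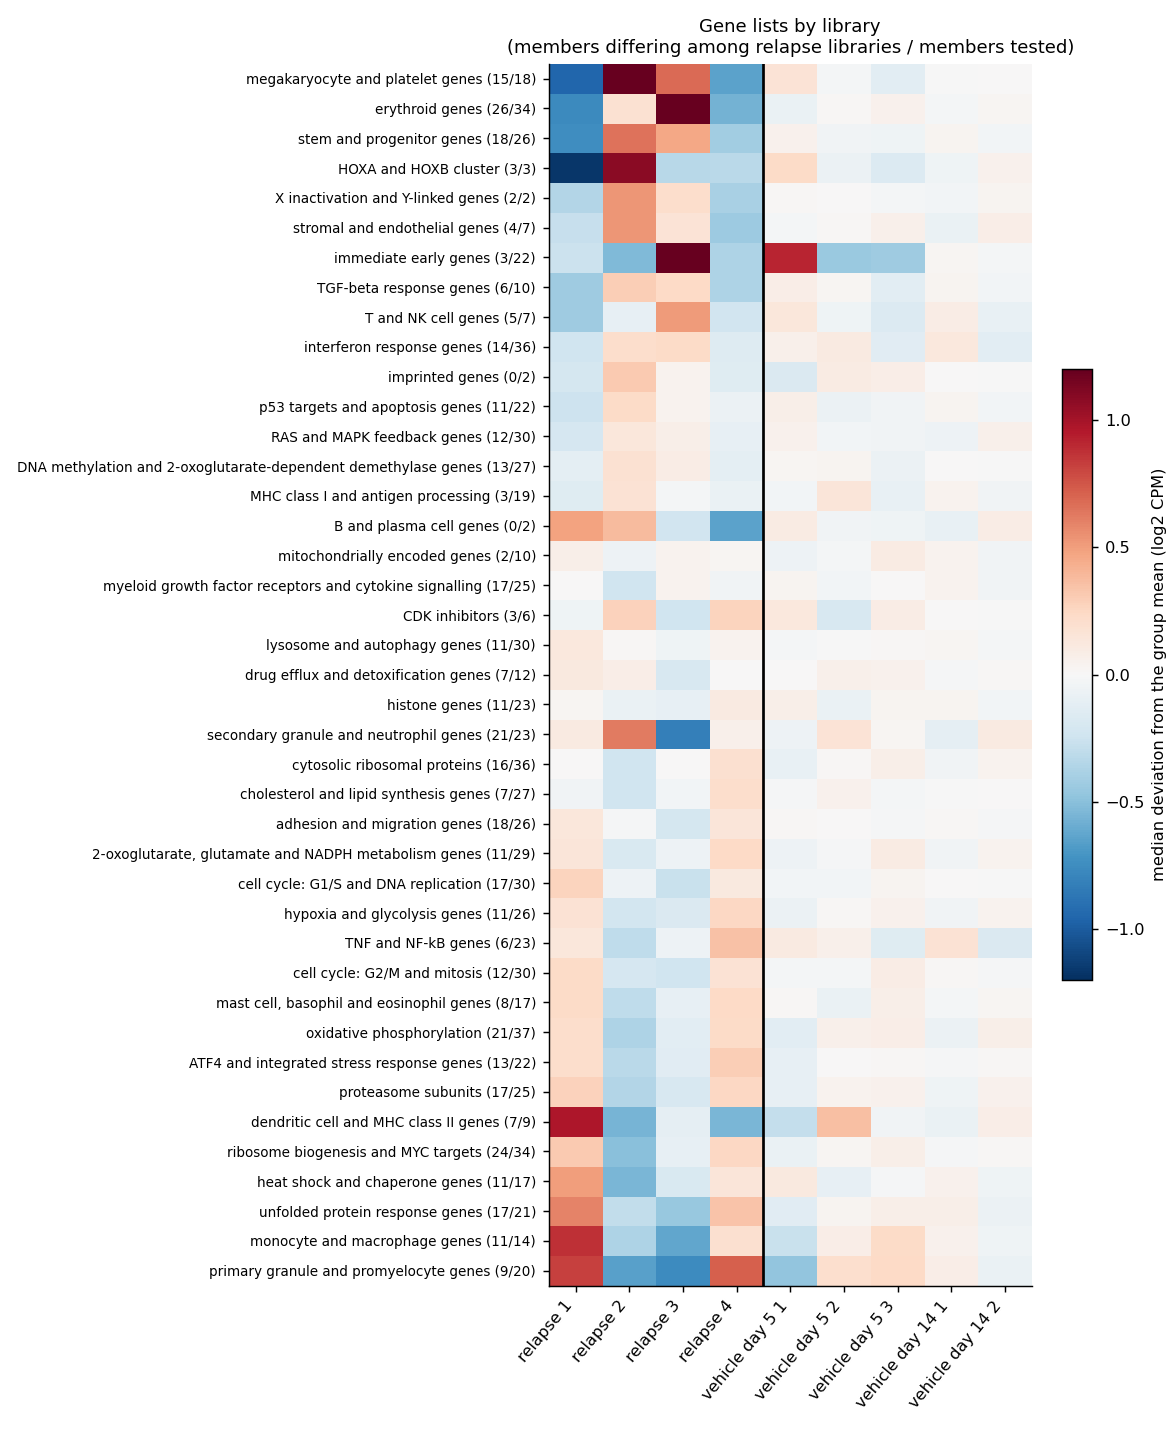
Median deviation of each gene list's tested members from the group mean (colour, log2 CPM) in the 4 relapse and 5 vehicle libraries (columns). The numbers beside a list are members that differed among the relapse libraries and members tested; lists higher in relapse 2 and 3 are at the top and lists higher in relapse 1 and 4 at the bottom.

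Stem cell and megakaryocyte genes were high in replicates 2 and 3 and low in replicates 1 and 4. Of 26 stem and progenitor genes tested (of 40 in the list), 18 were called (69.2%), and 14 of these had replicates 2 and 3 above the mean. Their median SD was 0.81 in relapse and 0.16 in vehicle. Mycn, a MYC family transcription factor, was measured at 11.3 and 16.8 CPM in replicates 2 and 3 and had no count in replicates 1 and 4, against 4.76 to 7.60 in the vehicle libraries. With 3 counts taken as what a 0 allows in a library, Mycn was at least 18.6-fold higher in replicate 2 than in replicate 1 and at least 43.4-fold higher in replicate 3 than in replicate 4 (adjusted p = 1.35e-12, edgeR).

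Kit, the receptor used for the sort, followed the same order at 20.3, 54.2, 56.1 and 20.6 CPM in replicates 1 to 4. The vehicle libraries were within 36.1 to 40.4, so that all 4 relapse libraries lay outside the vehicle range, 2 on each side (adjusted p = 1.46e-09). Tal1, a master regulator of stem cells and of the megakaryocyte and erythroid lines, was at 15.4, 77.8, 69.1 and 13.5 CPM. Angpt1, the ligand of the TEK receptor on stem cells, was at 119, 523, 412 and 181 CPM, and its own receptor gene Tek moved the same way at 0.609, 5.19, 4.01 and 1.29. The Tek level in replicate 1 equals 3 counts, and Tek was not called with DESeq2 (adjusted p = 0.1955). Meis1, a HOX cofactor that sustains leukemic self-renewal, was at 91.2, 285, 148 and 84.4 CPM, with replicate 2 above all vehicle libraries (144 to 199). Of the 18 called members of the list, 2 had replicates 1 and 4 above the mean and 2 followed other patterns. Thy1 (5.48, 0.192, 0.743 and 6.83 CPM) and Lmo2 (60.7, 36.7, 34.0 and 56.9) had replicates 1 and 4 above the mean. Myb and Cd34 were among the members not called (adjusted p = 0.113 and 0.0649). Under the stricter filter Myb was called (0.0403). Cd34 was called without relapse replicate 3 (0.0373), without either vehicle day 14 library (0.0428 and 0.0435) or without vehicle day 5 replicate 1 (0.0353).

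No HOX gene itself passed the filter. Of the 22 members of the HOXA and HOXB list, 13 had no count in any of the 9 libraries, and the members that were tested are cofactors of HOX proteins such as Meis1.

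Megakaryocyte and platelet genes were called in 15 of 18 tested, and all 15 had replicates 2 and 3 above the mean. F2r, the thrombin receptor PAR1, was at 11.6, 139, 117 and 20.9 CPM, a range of 11.8-fold, against 70.5 to 91.2 in vehicle (adjusted p = 2.20e-18). Gp5 encodes a chain of the platelet receptor for von Willebrand factor and was at 2.84, 34.8, 23.3 and 2.96 CPM. Pf4, a platelet chemokine, was at 2.23, 20.4, 23.02 and 3.09 CPM, below every vehicle library (32.2 to 41.4) in all 4 mice. The integrin Itga2b (81.0, 266, 253 and 99.1 CPM) and the platelet protein kinase C substrate Plek (86.5, 297, 250 and 78.5 CPM) showed the same order. Of the 3 tested members that were not called, Selp, encoding P-selectin, was at 1.42, 3.07, 4.90 and 38.0 CPM, and it is also variable within vehicle (0.460 to 5.00; adjusted p = 0.148). Without vehicle day 5 replicate 1 or 2 Selp was called (adjusted p = 5.02e-07 and 3.06e-18).

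Several of the genes with the smallest p-values belong to this side of the axis without being in a lineage list. Adgrg1 (GPR56), an adhesion receptor of stem cells, was at 341, 1350.0, 1003 and 430 CPM. Arhgap6, a GTPase-activating protein, was at 45.9, 190, 240 and 45.8 CPM. Marcks, a membrane-bound actin regulator, had a range of 10.1-fold with 5.28, 55.9, 40.8 and 6.06 CPM. In each of these, replicates 1 and 4 lay below all 5 vehicle libraries and replicates 2 and 3 above them. Eya2 (7.31, 44.4, 36.1 and 6.70 CPM), Zbtb20 (19.3, 101, 67.9 and 22.3), Nrgn (17.5, 76.2, 76.8 and 14.8) and Ctla2a (12.8, 69.9, 104 and 18.4) repeated the order. For Ctla2a, replicate 2 lay inside the vehicle range of 66.8 to 89.3.

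Genes of primary granules and promyelocytes ran the other way, high in replicates 1 and 4. In the primary granule and promyelocyte list, 9 of 20 tested members were called, all with replicates 1 and 4 above the mean, and replicate 4 lay above the mean in 20 of 20. Gfi1, a transcriptional repressor that drives granulocyte development, was at 15.0, 1.73, 2.52 and 14.1 CPM (vehicle 1.38 to 5.23). Elane, neutrophil elastase, was at 9.14, 1.92, 0.594 and 10.4 CPM, and Hk3, the hexokinase of myeloid cells, at 24.4, 8.64, 2.38 and 28.8. Mpo, myeloperoxidase, was the most abundant member at 1786, 435, 406 and 1040 CPM, but it ranged from 566 to 1076 within vehicle and was not called (adjusted p = 0.150; 5.11e-19 without vehicle day 5 replicate 1, 0.00077 with DESeq2 and 0.0303 with AG120 libraries in the reference). Vehicle day 5 replicate 1 stood low for this list, with a median deviation of -0.48 on the log2 scale, and without it 16 of 20 members were called. DESeq2 called 13 and limma-voom 6, and without relapse replicate 1 edgeR called 8. Elane and Gfi1 were not called with limma-voom (adjusted p = 0.0850 and 0.0526).

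Genes of more mature myeloid cells followed several patterns. Itgam, which encodes CD11b, the antigen the sort was meant to leave out, was at 57.5, 15.0, 17.4 and 38.2 CPM, and 11.3 to 19.5 in vehicle (adjusted p = 1.35e-08). Of 14 monocyte and macrophage genes tested, 11 were called, 5 of them with replicates 1 and 4 above the mean, a share near the 37.7% of all called genes. Ms4a6c was at 94.7, 19.4, 25.4 and 102 CPM and the protease Ctss at 32.9, 4.42, 6.53 and 30.6. C1qa, a complement chain of macrophages, was the called member with replicates 2 and 3 above the mean, at 0.203, 4.23, 2.38 and 1.03 CPM (adjusted p = 0.00551; 0.0662 without replicate 1, 0.107 with a replicate block and 0.369 with DESeq2). The summed level of the 26 monocyte genes was 404, 113, 107 and 350 CPM in replicates 1 to 4 and 106 to 174 in vehicle, with Adgre1 (F4/80) at 0.576 CPM or less in relapse and Csf1r at 20.3, 9.60, 10.2 and 10.3 (adjusted p = 0.962 without replicate 1). The part of maturing myeloid cells in the other differences between the mice was not tested. Without replicate 1 the monocyte count was 5, and DESeq2 called 6.

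S100a6 (146, 62.4, 38.3 and 200 CPM), the receptor chain Csf2rb shared by the IL-3, IL-5 and GM-CSF receptors (117, 26.7, 46.6 and 101), the oxidase subunit Cybb (150, 23.8, 14.0 and 103) and the sorting receptor Sorl1 (49.1, 9.60, 7.28 and 32.4) were all higher in replicates 1 and 4 than in any vehicle library. Cebpb, a transcription factor of myeloid differentiation, was at 22.8, 5.57, 4.31 and 18.4 CPM. Id1, an inhibitor of basic helix-loop-helix factors, was at 12.6, 3.46, 2.08 and 16.4. In the fit with replicate number as a block, Cybb was no longer called (adjusted p = 0.438, edgeR).

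**Figure D4:**
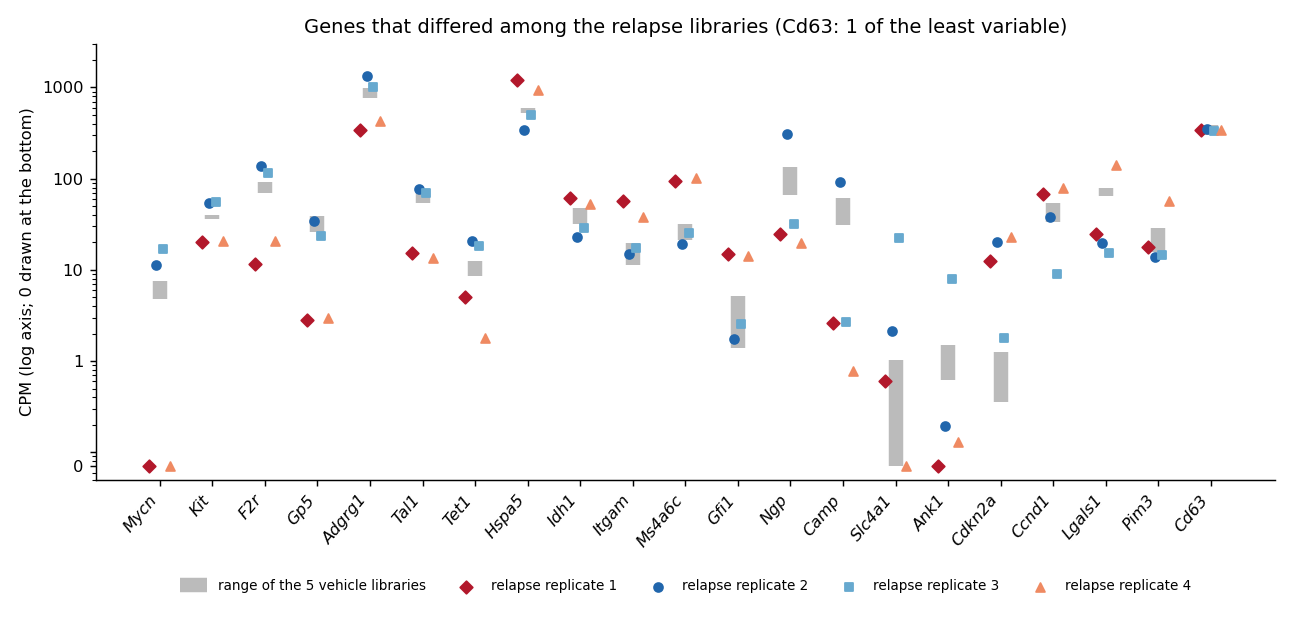
Level of 21 genes (CPM, log axis, with 0 drawn at the bottom) in the 4 relapse libraries (symbols), over the range of the 5 vehicle libraries (grey bars). Replicates 2 and 3 lie above replicates 1 and 4 for Mycn to Tet1, below them for Hspa5 to Gfi1, and 1 library stands apart or leads for most of the others; Cd63, at 337 to 351 CPM, is 1 of the least variable genes.

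Genes of the unfolded protein response were high in replicates 1 and 4. Of 21 genes tested, 17 were called (81.0%), and 16 of these had replicates 1 and 4 above the mean. The median SD was 0.57 in relapse and 0.15 in vehicle, and the 22 listed genes summed to 4603, 2033, 2201 and 3928 CPM against 2612 to 3064 in vehicle. Hspa5, the chaperone BiP, was at 1198, 345, 498 and 939 CPM, so that replicates 1 and 4 lay above and 2 and 3 below the vehicle libraries (530 to 601; adjusted p = 5.85e-14). Hsp90b1, the HSP90 of the endoplasmic reticulum, was at 570, 224, 249 and 477 CPM, and its vehicle range of 344 to 421 was again crossed on both sides. The disulfide isomerase Pdia6 was at 257, 95.7, 106 and 228 CPM, and Sdf2l1, a cofactor of BiP, at 36.8, 10.2, 10.54 and 29.1. Xbp1, the transcription factor spliced by IRE1, was at 49.4, 23.8, 30.3 and 56.7 CPM. The sensor genes differed less: Ern1 (IRE1) stayed between 11.6 and 14.2 CPM, with Atf6 at 23.4, 16.9, 16.9 and 20.5, and neither was called (adjusted p = 0.776 and 0.299). Dnajb9 was the called member with another pattern, highest in replicate 3 (6.50, 8.64, 16.04 and 7.86 CPM), and without that mouse it was not called (adjusted p = 0.703). Leaving out any 1 relapse library left 13 to 17 of the 21 called, and DESeq2 called 13.

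The promoters of the genes of this list were searched for the endoplasmic reticulum stress element. Through this sequence ATF6 and the CCAAT-binding factor NF-Y are known to act: CCAAT, then 9 bases of any kind, then CCACG, on either strand. The window ran from 250 bases before to 50 bases after the start of each gene in RefSeq (GRCm38.p6). Of the 18 tested genes of the list that have a promoter in that table, 8 hold the element: Calr, Canx, Creld2, Dnajc3, Hsp90b1, Hspa5, Pdia6 and Syvn1. Over all tested genes with a promoter it occurs in 11 of 8451 (0.13%), these 8 included, and over all windows in 39 of 32851 (0.119%). The CCAAT part also matches the CCAAT box, which is common by itself. Of the 8 genes, 7 were called with replicates 1 and 4 above the mean, although Creld2 was not without replicate 1 (adjusted p = 0.0504) or 3 (0.0777), with a replicate block (0.0564) or with DESeq2 (0.476), and Syvn1 was not called (10.97, 14.0, 10.4 and 15.5 CPM, adjusted p = 0.270). Over the whole list 17 of 21 genes were called, 16 with replicates 1 and 4 above the mean. The list was drawn from textbook knowledge of this response. Its share with the element therefore describes the list and not the differences between the mice. A match is a description of the letters and not of binding. The stretches of 5 of these promoters are shown to let the shared letters be compared; they run 5′ to 3′ in the direction of the gene, capitals mark CCAAT and CCACG (or ATTGG and CGTGG on the other strand), and the Hsp90b1 stretch holds 2 elements.
Hspa5 (chr2:34772005-34772063, + strand): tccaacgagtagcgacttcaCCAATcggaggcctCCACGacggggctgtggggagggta
Pdia6 (chr12:17266471-17266529, + strand): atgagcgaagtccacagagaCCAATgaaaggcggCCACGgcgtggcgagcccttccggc
Dnajc3 (chr14:118937807-118937865, + strand): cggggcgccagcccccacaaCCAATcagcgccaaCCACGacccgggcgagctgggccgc
Canx (chr11:50325780-50325838, - strand): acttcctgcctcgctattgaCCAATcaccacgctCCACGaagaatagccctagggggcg
Hsp90b1 (chr10:86705513-86705676, - strand): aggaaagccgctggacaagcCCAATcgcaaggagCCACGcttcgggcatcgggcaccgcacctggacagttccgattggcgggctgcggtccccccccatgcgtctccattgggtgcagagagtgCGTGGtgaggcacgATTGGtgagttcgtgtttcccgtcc

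Proteasome and oxidative phosphorylation genes were also higher in replicates 1 and 4, with smaller amplitude. All 17 called proteasome subunits of 25 tested and all 21 called oxidative phosphorylation genes of 37 tested had replicates 1 and 4 above the mean, and replicate 4 was above the mean for 25 of 25 and 35 of 37 members. Psma2, a subunit of the proteasome core, was at 166, 75.5, 119 and 144 CPM, and Uqcrq, a subunit of complex III, at 43.3, 19.4, 27.6 and 51.6. Their median SDs were 0.33 and 0.31, near the 0.32 of all genes and above the 0.23 of the class of highest expression, and their median SD ratios were 2.72 and 2.29. Without replicate 2, 8 proteasome genes were called, and DESeq2 called 7 proteasome and 8 oxidative phosphorylation genes. Of 10 mitochondrially encoded genes 2 were called, a share below the 28.5% of all genes, and without replicate 2 edgeR called 0 (1 at an unadjusted p under 0.05).

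Genes of ribosome biogenesis and MYC targets were called in 24 of 34, 17 of them with replicates 1 and 4 above the mean, and replicate 2 was the lowest by median deviation (-0.50 on the log2 scale). Gnl3, nucleostemin, was at 81.5, 32.3, 70.1 and 99.4 CPM, and the mitochondrial chaperonin Hspe1 at 135, 53.8, 89.2 and 126. Without replicate 2 the count was 12, and DESeq2 called 14. Cytosolic ribosomal protein genes gave 16 calls of 36, of which 6 had replicates 1 and 4 above the mean and 10 other patterns, with 1 call without replicate 2, 7 without replicate 4 and 5 with DESeq2. Heat shock and chaperone genes were called in 11 of 17, 10 with replicates 1 and 4 above the mean; Hspa8, the constitutive HSP70, was at 171, 59.5, 86.9 and 141 CPM, and was not called with the AG120 libraries in the reference (adjusted p = 0.0901).

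Genes of G2 and mitosis differed in the same order. All 12 called G2/M genes of 30 tested (40%) had replicates 1 and 4 above the mean. Over all genes 28.5% were called, and 41.9% in the class of highest expression. The median SD of the G2/M list in relapse was 0.27, under the 0.32 of all genes and above the 0.23 of that class. Its median SD ratio was 2.33. Cdk1 was at 84.1, 37.5, 48.6 and 69.2 CPM and Birc5, survivin, at 169, 95.8, 95.9 and 150. Of 30 G1/S genes, 17 were called, 8 with this pattern and 9 with others, and their sum was lowest in replicate 3 (2048, 1769, 1448 and 1819 CPM). The 8 include Rrm2, a subunit of ribonucleotide reductase (32.5, 11.9, 11.6 and 29.9 CPM). DESeq2 called 4 genes of each list, and the G1/S count was 10 without replicate 1, 8 without replicate 3 and 11 with a replicate block.

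The secondary granule and neutrophil list had 21 of 23 tested members called (91.3%), and its members followed different mice. The granule proteins of late neutrophil precursors were high in replicate 2: Ngp was at 24.8, 312, 32.1 and 19.9 CPM (vehicle 66.5 to 136; adjusted p = 2.79e-23), and Camp, the cathelicidin, at 2.64, 93.2, 2.67 and 0.773 (vehicle 30.9 to 61.4). Ltf, lactoferrin, was at 1.62, 20.6, 2.52 and 1.29. For these 3 genes replicate 2 lay above every vehicle library and the other relapse libraries below. Mmp9, a gelatinase, was at 10.6 CPM in replicate 2 and at 0, 0.148 and 0.387 in replicates 1, 3 and 4. S100a9 was at 117, 284, 71.0 and 105 CPM. By contrast, 7 called members had replicates 1 and 4 above the mean, among them Cybb, Itgam and Lcn2 (38.0, 16.3, 5.05 and 34.5 CPM), and no member lay above the mean in replicate 3. Without replicate 2, Camp, Ltf and Mmp9 were not called (adjusted p = 0.139, 0.511 and 0.484, edgeR), and 14 of the list were. The part of maturing neutrophils in the other differences of replicate 2 was not tested.

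Erythroid genes were highest in replicate 3, which lay above the mean in 32 of 34 tested members, and 26 were called. Of these 26, 12 had replicates 2 and 3 above the mean, 1 had replicates 1 and 4, and 13 followed other patterns. Slc4a1, the band 3 anion exchanger of red cells, was at 0.609, 2.11, 22.3 and 0 CPM, while vehicle reached 1.04 at most, so that replicate 3 was at least 57.6-fold above replicate 4. Ank1, erythroid ankyrin, was at 0, 0.192, 8.02 and 0.129 CPM. Hbb-bs, an adult beta globin, was at 4.26, 18.4, 101 and 0.644 CPM, but it also ranged from 3.99 to 18.8 in vehicle and was not called (adjusted p = 0.0955). It was called without vehicle day 5 replicate 1 (9.29e-06), with DESeq2 (7.30e-05), with AG120 libraries in the reference (0.0398) and with a replicate block (0.00360, or 0.00577 with the AG120 libraries); globin genes have near-identical copies among which reads may be split. Gata1, a regulator of the erythroid and megakaryocyte lines, was at 0, 2.50, 6.09 and 1.93 CPM, below the vehicle range of 8.81 to 10.9 in all 4 mice. The erythroid sum was 296, 506, 933 and 300 CPM, and 445 to 540 in vehicle. Without replicate 3 the count was 12, and the part of red cell precursors in the other differences of replicate 3 was not tested.

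Replicate 3 also stood apart in immediate early genes, which are switched on within minutes of a stimulus and also of cell handling. Their sum was 486, 414, 1191 and 458 CPM, and all 22 tested members lay above the mean in replicate 3. Vehicle day 5 replicate 1 was as high, at 1155 CPM against 401 to 678 in the other vehicle libraries, and only 3 of 22 members were called, a share under the 28.5% of all genes: Zfp36 (11.8, 7.49, 46.3 and 14.8 CPM), Nr4a2 (1.62, 5.38, 23.8 and 4.25) and Btg2 (4.88, 4.03, 14.8 and 3.87). Without that vehicle library 18 were called, and without relapse replicate 3 edgeR called 0 (1 at an unadjusted p under 0.05; Zfp36 0.396, Nr4a2 0.378 and Btg2 0.855 as adjusted p). Zfp36 and Nr4a2 also lost their calls without vehicle day 14 replicate 1 (0.153 and 0.144) or replicate 2 (0.145 and 0.139). Tnf, a cytokine induced by the same stimuli, was at 4.26, 4.61, 23.2 and 4.51 CPM, and its adjusted p went from 1.61e-05 to 0.988 without replicate 3.

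Cell cycle regulators marked single mice as well. Cdkn2a, the locus of the INK4A and ARF tumor suppressors, was at 12.6, 20.2, 1.78 and 22.9 CPM and 0.352 to 1.27 in vehicle, so that replicate 3 was the one relapse library near the vehicle range (adjusted p = 1.96e-08; 0.0780 without replicate 3). Ccnd1, cyclin D1, was likewise lowest in replicate 3, at 67.2, 38.4, 8.91 and 79.2 CPM with vehicle at 33.6 to 53.7. Etv5, an ETS factor induced by MAPK signalling, was at 22.1, 17.7, 6.53 and 28.4 CPM (adjusted p = 0.0907 without replicate 3). The MAPK phosphatase gene Dusp6 was highest in replicate 2 instead, at 55.5, 130, 66.1 and 65.6 CPM against 50.8 to 59.3, and it was not called without that mouse (adjusted p = 0.471). Of 30 RAS and MAPK feedback genes, 12 were called and 6 of these followed patterns other than the main pair, and DESeq2 called 6.

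Some called genes differed most in replicate 4. It alone lay above the mean in 45 called genes, 1.36% of those called against 2.16% of all genes tested. Lgals1, galectin-1, was at 24.6, 19.6, 15.4 and 143 CPM with vehicle at 64.1 to 79.4, so that replicate 4 lay above and the other 3 below the vehicle range (adjusted p = 3.61e-18; 0.0679 without replicate 4). Pim3, a survival kinase, was at 17.9, 14.0, 14.4 and 56.9 CPM, and Mthfd2, an enzyme of mitochondrial folate metabolism, at 17.3, 10.4, 15.0 and 39.3. Runx1, a transcription factor of blood formation, was lowest there, at 62.8, 77.4, 81.4 and 38.2 CPM. Without replicate 4 the differences in Pim3, Mthfd2 and Runx1 were not called (adjusted p = 0.520, 0.108 and 0.180, edgeR).

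Replicate 1 led in Adam15, a membrane metalloprotease, at 70.5, 30.9, 35.2 and 26.4 CPM (adjusted p = 1.35e-07; 0.232 without replicate 1). By median deviation (0.97 on the log2 scale) it also led in the dendritic cell and MHC class II list. The summed level of the 19 listed genes was not highest there, at 86.3, 103.5, 94.8 and 71.8 CPM in replicates 1 to 4. Cd74, the invariant chain, was at 6.09, 1.34, 1.49 and 3.48 CPM (adjusted p = 0.0148; 0.185 without replicate 1). Of 9 tested genes of the dendritic cell and MHC class II list, 7 were called, 3 without replicate 1 and 1 with DESeq2. Replicates 1 and 4 lay above the mean in 2 of the 7, replicates 2 and 3 in 1, and 4 followed other patterns.

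Replicate 2 differed along a whole chromosome. Its 650 tested genes on chromosome 9 had a median deviation of 0.16 on the log2 scale from the relapse mean, and 66.3% of them lay above 0. In all 13 consecutive windows of about 50 genes along the chromosome the median was above 0, from 0.05 to 0.30. Over the other 19 chromosomes (1 to 19 and X) the medians of the 4 relapse libraries stayed between -0.09 and 0.06, and those of the vehicle libraries over all 20 stayed between -0.03 and 0.03. Ngp, Camp and Ltf, which were high in replicate 2, are among these 650 genes. The chromosome was singled out after its value was seen, and its DNA copy number was not measured here.

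**Figure D5:**
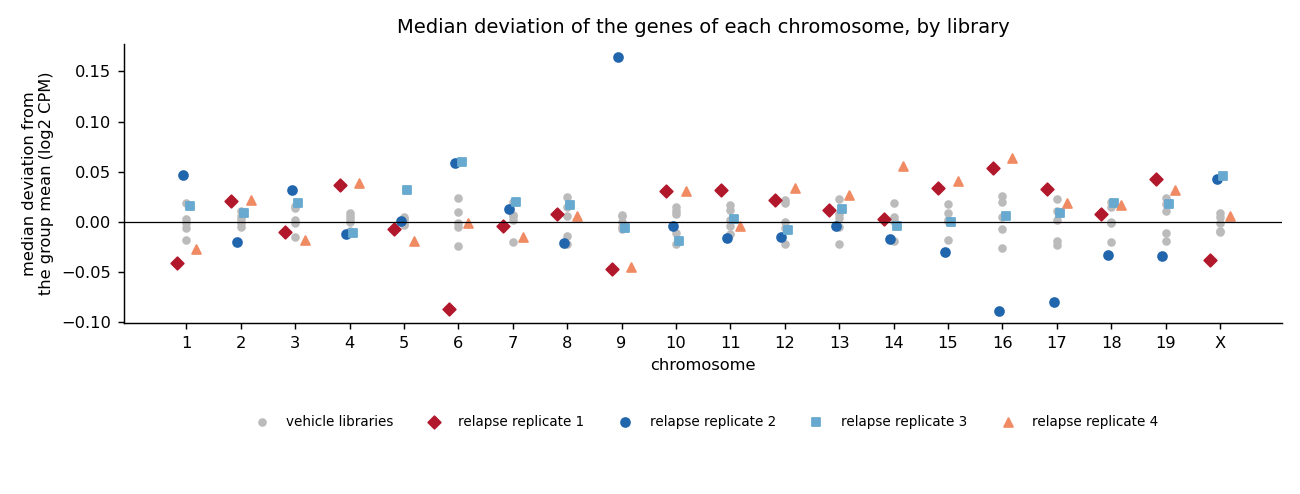
Median deviation from the group mean (y, log2 CPM) of the tested genes on each chromosome (x) in the 4 relapse libraries (coloured symbols) and 5 vehicle libraries (grey). Replicate 2 on chromosome 9, at 0.16, is the point farthest from 0.

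Expression of Idh1, the gene of the drug's target, also varied between the mice. Idh1 was at 62.2, 22.7, 28.7 and 52.98 CPM with vehicle at 32.1 to 47.2 (adjusted p = 1.88e-07); replicates 1 and 4 lay above and 2 and 3 below the vehicle libraries. Reads from the 3′ end do not separate a mutant from a normal transcript. Idh2, the mitochondrial form, ranged less, at 133, 88.5, 112 and 132 CPM (adjusted p = 0.00756), and it was not called without replicate 2 or with DESeq2 (adjusted p = 0.386 and 0.133). Dnmt3a (103, 126, 115 and 103 CPM) and Nras (64.6, 84.9, 79.5 and 68.7), which are often mutated in the same leukemias as IDH1, were not called (adjusted p = 0.281 and 0.173).

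In the list for the metabolism of 2-oxoglutarate, glutamate and NADPH, 11 of 29 genes were called (37.9%), 10 with replicates 1 and 4 above the mean. Over all genes 28.5% were called, and 41.9% in the class of highest expression. Gsr, glutathione reductase, was at 128, 36.3, 32.4 and 105 CPM. Without replicate 4 the list's count was 7, and DESeq2 called 4. Among 27 DNA methylation and 2-oxoglutarate-dependent demethylase genes, 13 were called (48.15%) and 8 had replicates 2 and 3 above the mean. The median SD within relapse was 0.30 in both lists, under the 0.32 of all genes. Their median SD ratios were 2.034 and 2.435, against 1.83 over all genes. Tet1, which oxidizes 5-methylcytosine, was at 5.08, 20.9, 18.1 and 1.80 CPM (adjusted p = 8.31e-10), and Tet3 at 22.8, 59.0, 56.0 and 37.8. The histone demethylase gene Kdm5b was at 35.8, 86.2, 81.2 and 37.0 CPM. Tet1 and Kdm5b were therefore high in the mice with low Idh1, on the axis that most called genes follow.

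Interferon genes split between the directions. Of 36 tested, 14 were called, 8 with replicates 2 and 3 above the mean and 4 with replicates 1 and 4. Rsad2, viperin, was at 5.69, 16.7, 24.9 and 3.09 CPM and Usp18, the ISG15 protease, at 2.44, 10.2, 10.54 and 2.58, whereas Ifitm3, a membrane protein that limits virus entry, was at 20.7, 6.92, 12.9 and 42.8. MHC class I and antigen processing genes were called in 3 of 19, below the share of all genes, with Tap2, a chain of the peptide transporter, highest in replicate 2 (48.5, 96.0, 41.1 and 44.0 CPM; adjusted p = 0.643 without that mouse). Without replicate 2 the counts were 8 for interferon genes and 0 for MHC class I (edgeR; 2 at an unadjusted p under 0.05), and DESeq2 called 5 and 1. The MHC class I count was 6 without either vehicle day 14 library or without vehicle day 5 replicate 1.

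Xist, the RNA that coats the inactive X chromosome, was at 374, 688, 593 and 368 CPM and 524 to 601 in vehicle (adjusted p = 5.55e-08). The counting is not stated to use strand, so reads of Xist and of its antisense partner Tsix cannot be told apart. With the AG120 libraries in the reference Xist was not called (adjusted p = 0.187).

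At the other end were abundant genes that hardly moved. Cd63, a tetraspanin of late endosomes, was at 339, 351, 337 and 342 CPM, an SD of 0.03 against 0.14 in vehicle. Smc3, a cohesin subunit, was at 241, 239, 231 and 237 CPM. These were chosen for their small spread and are given as a description. The 19 genes with a lower spread in relapse than in vehicle were not members of any list.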

How the data were processed

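The deposited values are raw counts of QuantSeq 3′ reads on each gene, as 1 table with 14 library columns. Per the submitters' processing notes, HISAT2 2.1.0, featureCounts (Subread 1.6.3), cutadapt 1.14, bcl2fastq 2.17.1.14, edgeR 3.28.1, limma 3.42.2, R 3.6.2 and the mm10 build were used; for strand, multiple matches and molecular identifiers the sources used here give nothing. Columns were matched to libraries by name, and 52489 of 52636 identifiers got a symbol from GENCODE M21.

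The 4 relapse and 5 vehicle libraries were filtered (filterByExpr, minimum count 10), scaled by TMM and fitted with R 4.3.3 and edgeR 4.0.16 (robust quasi-likelihood, 1 coefficient per relapse library and per vehicle group, 3 residual degrees of freedom, common dispersion 0.00745, median prior 36.0). An F test over 3 contrasts set the relapse libraries equal. Spread was compared with limma 3.58.1 on absolute deviations of log2 CPM (prior count 2) from the group mean, each scaled for group size. Adjusted p values are Benjamini-Hochberg over the 11620 genes, and a printed adjusted p is from edgeR's quasi-likelihood test unless another test is named. A range in fold is the highest over the lowest relapse library on the log2 CPM scale. Rows for ribosomal RNA stayed in the library totals.

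The libraries, the 41 gene lists (textbook knowledge) and the tests were chosen with earlier results of these data known. The genes named are the sort markers Kit and Itgam, Idh1, Idh2, Nras and Dnmt3a, the 20 of smallest p and the 12 of largest SD at a mean log2 CPM of at least 4, leading members per list and pattern, and the 6 least variable at a mean of at least 7. Members named outside this rule (Tek, Lmo2, Myb, Cd34, Selp, Mpo, Csf1r, Adgre1, Xbp1, Ern1, Atf6, Dnajb9, Syvn1, Ltf, Hbb-bs and the other genes with the promoter element) were chosen as markers or after their values were seen. Alternatives were other scaling, filters, prior counts, squared deviations, removal of ribosomal RNA, thinning to equal depth, AG120 libraries in the reference, DESeq2 1.42.0, limma-voom, a replicate block and leaving out each library. The p-values measure the spread between the sampled mice only, and the limit of 3 counts for a 0 covers counting error only. Some genes that met the rule for named genes are not reported here.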

Additional observations from a re-analysis of the deposited data

Results flagged for a closer look

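In the 4 relapse libraries, a value was looked at again where the gap between the extreme library and its nearest neighbour took an unusually large share of the whole range (Dixon's test at the 95% level). Flagged were 4 of 111 genes named in the text, 2 of 41 list sums and 0 of 5 library facts. Chance gives about 1 in 20 for independent values that were not selected. Many of these genes were named for their spread in the same 4 libraries, and many vary together, so the counts cannot be set against that rate. Replicate 3 was the high one for the immediate early sum (0.908 of the range), for Tnf (0.956), for Btg2 (0.832) and for Ank1 (0.850). Replicate 1 was the high one for Csf1r (0.906), a receptor of monocytes. Replicate 2 was the high one for the summed MHC class I genes (0.842), at 966, 1177, 997 and 1000 CPM.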

How the results depend on the processing

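Between 28106 genes with no filter and 6930 under the stricter one, the count of genes that differed among the relapse libraries stayed within 1.5 times the 3308 of the report under other scaling, filters, thinning, removal of ribosomal RNA, AG120 libraries in the reference and limma-voom; DESeq2 gave 1089, of which 1059 were among the 3308. Leaving out each library gave 2047 (without relapse replicate 2) to 3755 (without vehicle day 5 replicate 1). Genes with a higher spread in relapse numbered 569 with squared deviations, and 0 to 1350 when each library was left out. The 0 holds for each relapse library left out (limma; 2854 to 3568 higher at an unadjusted p under 0.05); the cause was not tested. Genes with a lower spread numbered 921 with no filter, 5 with the stricter filter, 0 with squared deviations (limma; 103 at an unadjusted p under 0.05) and 0 to 100 with each library left out. With either vehicle day 14 library left out, vehicle day 5 alone was the reference for spread. The median SD ratio ran from 1.24 with no filter to 2.06 without vehicle day 14 replicate 1, and the share of genes with the higher SD in relapse from 59.8% to 81.5%. With dispersions that edgeR estimated in each group alone, and pulled toward a common value, it was 99.97%.

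A fit with replicate number as a block (replicate block) called 2601 genes, and 2487 with the AG120 libraries as well. The labels do not say that a number is shared, and libraries of the same number did not deviate together: the correlations across genes ran from -0.21 to 0.11. Of the alternative values for named genes, 1992 stayed on their side of the threshold, 56 lost it and 17 gained it. Usable depth, 1984490 to 3124293 counts outside ribosomal RNA in relapse, limits statements on genes near a few CPM.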

Other observations

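Several gene lists that the text above does not describe also differed between the relapse mice. Of 26 hypoxia and glycolysis genes tested, 11 were called by edgeR. That is 42.3%, against 28.5% of all genes and 41.9% of the class of highest expression. Replicates 1 and 4 lay above the mean in 8 of the 11, and 10 or 11 were called whichever library was left out. Egln3, a prolyl hydroxylase that acts on HIF, was at 40.4, 17.9, 19.6 and 57.4 CPM in replicates 1 to 4 (vehicle 16.3 to 29.8), and the cytokine Mif at 94.8, 33.6, 48.7 and 98.0. The glycolytic enzyme Pgam1 was at 211, 77.8, 75.9 and 162 CPM. Ndrg1, which hypoxia is also known to induce, had the opposite order at 16.9, 46.7, 37.1 and 14.2 CPM (vehicle 23.9 to 29.5), so members of this list were high in different mice.

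In the ATF4 and integrated stress response list, 13 of 22 genes were called, 8 with replicates 1 and 4 and 0 with replicates 2 and 3 above the mean. Phgdh, the first enzyme of serine synthesis, was at 150.1, 55.5, 76.8 and 119 CPM. Without replicate 2 the count was 8, and DESeq2 called 5. Genes of drug efflux and detoxification split between the mice: Abcg2, an efflux pump found on stem cells, was at 1.02, 7.68, 10.7 and 2.32 CPM, and the glutathione transferase Gstm1 at 6.30, 0.576, 1.19 and 11.6. Tgfbr2, a TGF-beta receptor, was at 5.28, 15.6, 12.2 and 4.51 CPM. Lysosome and autophagy genes also ran both ways, with the lysosomal enzyme Hexa at 56.3, 34.6, 26.6 and 53.1 CPM, and the autophagy genes Gabarapl1 at 22.3, 39.6, 50.5 and 30.4 and Ulk1 at 21.7, 38.2, 36.2 and 24.5. Ulk1 was not called with DESeq2 (adjusted p = 0.201) or with a replicate block and the AG120 libraries (0.0742).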
